A study of Mus musculus with 2 samples.

Results

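The hypothalamus controls the pituitary through a small group of releasing hormones, peptides and dopamine, and the genes examined here encode 10 of them or the enzyme that makes dopamine. They are Ghrh, Sst, Crh, Trh, Gnrh1, Kiss1, Tac2, Th, Pdyn and Nts. The members were the spots other than controls whose gene symbol, or an older synonym of it, was one of these 10. The rule found 28 spots of 10 probes for 9 of the 10 genes, among 41174 probes and 21441 genes on the arrays. Of the 9 genes, 8 had a single probe and Ghrh had 2 probes, and the probes of Sst and Th were each printed 10 times. No spot carried the symbol, a synonym or an accession of Crh, which encodes corticotropin-releasing hormone, so Crh was not analysed here.

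Neurons of the arcuate, periventricular, paraventricular and preoptic nuclei make these messengers and release many of them into the portal blood that reaches the anterior pituitary. There, releasing hormones and inhibitors set the secretion of growth hormone, thyrotropin, corticotropin, gonadotropins and prolactin, and the hormones of the target glands feed back on the same neurons. Kisspeptin, neurokinin B and dynorphin are made together in one population of arcuate neurons that drives the pulses of gonadotropin-releasing hormone.

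The study asked how bezafibrate, a lipid-lowering drug that activates peroxisome proliferator-activated receptors, changes gene expression in the mouse hypothalamus. RNA of 4 mice was pooled in equal amounts for each of 4 groups, which were control and bezafibrate mice at zeitgeber time 10 (ZT10) and at ZT22, that is 10 and 22 hours into the light-dark cycle counted from lights on. Each pool was hybridised, after labelling of 400 ng of total RNA, to 1 one-colour whole-genome oligonucleotide array. The feeding scheme started at 8 weeks of age with 2 weeks of normal feed, went on with 2 weeks of feed holding 0.5% bezafibrate, and ended with 5 weeks of normal feed. The labels do not settle at which stage the brains were taken, and the strain, the sex and the light schedule are not given in the sources used here. The tissue was a square block containing the hypothalamus, dissected from the brain after decapitation. All 4 arrays lay on 1 slide, with both control arrays next to each other and both bezafibrate arrays next to each other, so the diet and the side of the slide cannot be told apart.

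A level below is the scaled signal, which is the scanner software's processed signal divided by the 75th percentile of its array and multiplied by 1000. The 75th percentile was 1010, 1050, 1010 and 893.0 intensity units on the control ZT10, bezafibrate ZT10, control ZT22 and bezafibrate ZT22 arrays, no spot was saturated, and 68.7% to 74.6% of the features were well above background. A difference is given as a log2 ratio followed by ± the scanner error of that ratio, which combines the software's errors of both signals. With 1 array per group this error covers neither mice nor pools, so no difference between a pair of arrays has a p-value. Levels of different probes are not set against each other, because probes differ in brightness for the same amount of RNA. In RNA of a dissected block, fewer cells of a type and less RNA per cell cannot be told apart.

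Genes that the hypothalamus expresses were present on every array. The 9 measured genes were well above background on all 4 arrays, although other brain regions make some of them too. Also well above background on all 4 arrays were the lateral hypothalamic peptides Hcrt (62475 to 78163) and Pmch (55446 to 64390) and the magnocellular hormone Oxt (50190 to 70396). The developmental regulator Nkx2-1 was between 565 and 636.

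Promoter sequences are shown for 3 of the genes, picked by the size of the diet ratio or by the number of spots. Kiss1 had the largest diet ratios of the 9 genes, while Sst and Th were measured with 10 spots each. Each sequence is the 250 bases before a start listed for the gene in RefSeq (GRCm38.p6), written 5′ to 3′ on the gene's strand. For Kiss1 and Sst that start lies inside the gene's annotated span, and for Th it lies at the edge of the span. The capitals mark the cyclic AMP response element (CRE) TGACGTCA in Sst and Th, and in Kiss1 the element's shorter form TGACG, which lies on the opposite strand and so reads CGTCA.
Kiss1, chr1:133326962-133327211, plus strand: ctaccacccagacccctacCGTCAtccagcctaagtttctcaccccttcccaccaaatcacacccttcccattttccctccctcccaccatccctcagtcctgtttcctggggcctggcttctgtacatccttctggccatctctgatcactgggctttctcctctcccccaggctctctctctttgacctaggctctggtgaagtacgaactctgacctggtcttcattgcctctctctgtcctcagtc
Sst, chr16:23890845-23891094, minus strand: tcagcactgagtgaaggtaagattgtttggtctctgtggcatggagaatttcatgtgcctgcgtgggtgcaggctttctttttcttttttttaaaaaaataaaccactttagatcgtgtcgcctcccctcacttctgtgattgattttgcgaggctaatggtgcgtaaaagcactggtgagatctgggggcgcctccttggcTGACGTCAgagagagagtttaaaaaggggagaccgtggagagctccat
Th, chr7:142899996-142900245, minus strand: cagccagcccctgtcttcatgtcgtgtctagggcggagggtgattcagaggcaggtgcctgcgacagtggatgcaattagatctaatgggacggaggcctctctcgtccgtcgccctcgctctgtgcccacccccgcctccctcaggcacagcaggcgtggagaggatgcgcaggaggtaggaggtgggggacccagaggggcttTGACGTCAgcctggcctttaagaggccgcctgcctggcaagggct

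The motifs below were searched on both strands in the 250 bases before each listed start, in 32851 RefSeq promoters and in the 10 promoters listed for 8 of the member genes. The CRE TGACGTCA, the site of the cyclic AMP-responsive factor CREB, lay 48 to 41 bases before the listed start of Sst. It lay 45 to 38 bases before that of Th, and 1.55% of all promoters held it. The shorter form TGACG, which every CRE contains, was found in 6 of the 8 genes (Ghrh, Kiss1, Nts, Sst, Th and Trh) and in 17.8% of all promoters. In Kiss1 it lay 231 to 227 bases before the listed start, which is inside the gene's annotated span. No member promoter held the E-box CACGTG, the motif of the circadian CLOCK and BMAL1 proteins, which 6.02% of all promoters held. None held the direct repeat of AGGTCA with 1 base between, the form of element that peroxisome proliferator-activated receptors bind, found in 0.0335% of all promoters. These matches describe the letters in these windows and were not tested for binding.

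None of the 9 genes reached a 1.5-fold difference (0.58 on the log2 scale) in any of the 4 comparisons. That was 0 of 9 for bezafibrate against control at ZT10, where 3.78% of 17285 genes did, and 0 of 9 at ZT22, where 5.48% of 16949 genes did. For ZT22 against ZT10 it was 0 of 9 in control mice, beside 6.42% of 17395 genes, and 0 of 9 in bezafibrate mice, beside 5.43% of 16754 genes. At shares this low, 0 of 9 does not set the members apart from other genes. The largest diet differences were in Kiss1, lower by 1.34-fold at the earlier time and by 1.46-fold at the later one, and in Ghrh, which was 1.36-fold higher at ZT22.

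**Figure D1:**
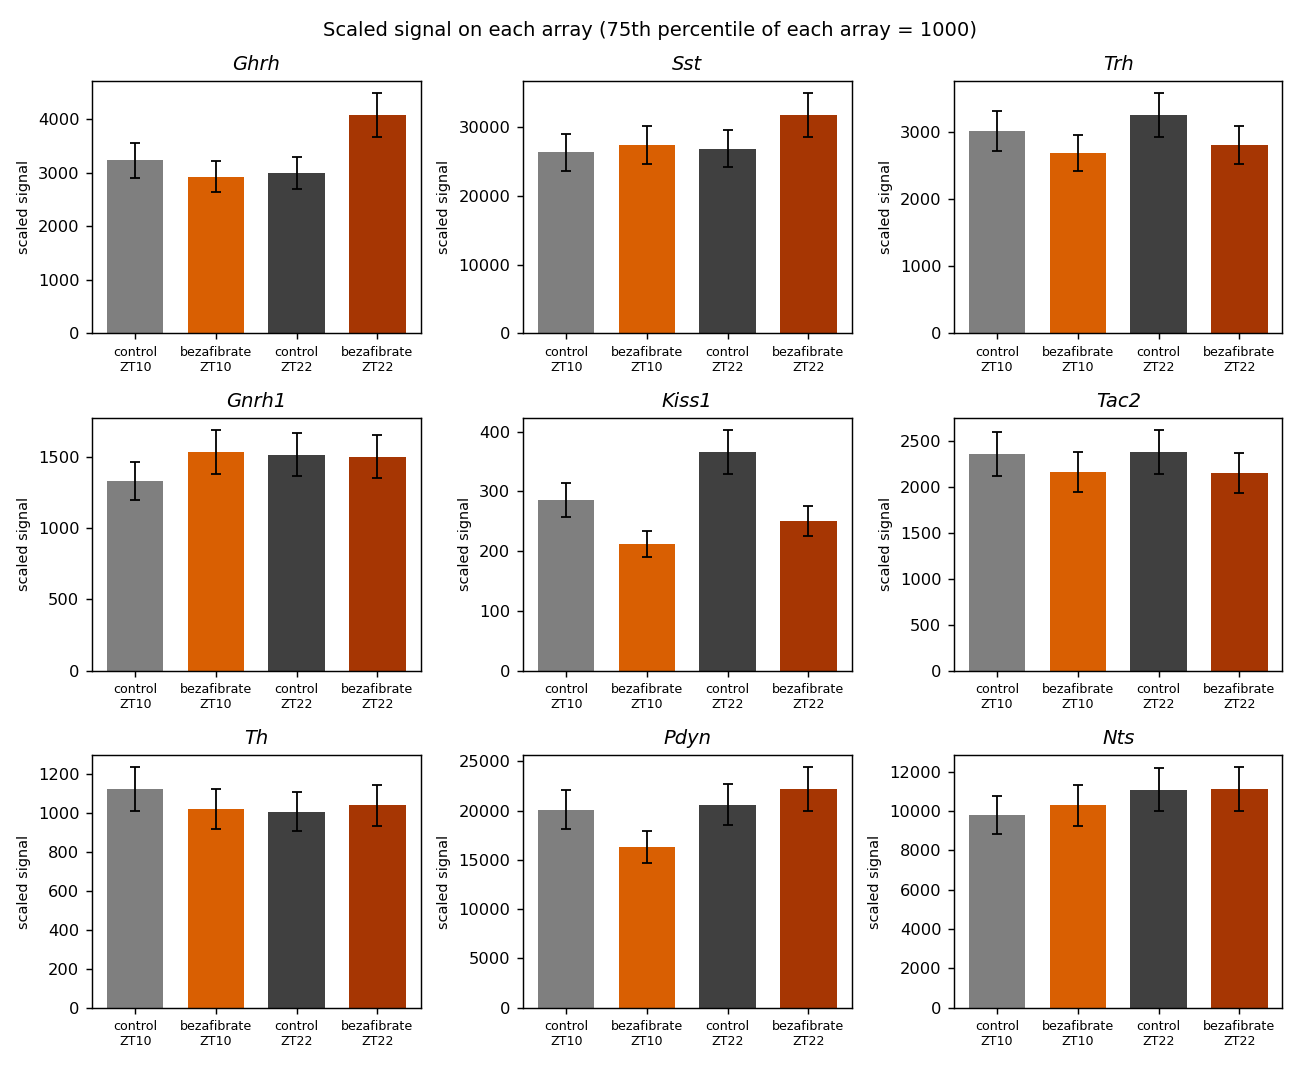
Scaled signal of each measured gene on each of the 4 arrays, with bars from 0, 1 pooled array per bar and whiskers for the scanner error of that signal. Kiss1 reads 285, 212, 366 and 251 from left to right, and the bars of Tac2, Th and Nts span no more than 1.13-fold.

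Growth hormone is released under the push of growth hormone-releasing hormone, encoded by Ghrh in arcuate neurons, and the brake of somatostatin, encoded by Sst. The Ghrh probe for NM_010285 read 3228 on the control array and 2924 on the bezafibrate array at ZT10, and 2990 and 4076 on the same arrays at ZT22. The bezafibrate ZT22 array stood alone above the other 3, whose readings lay close together. Its log2 ratio was -0.14 ± 0.20 at ZT10 and 0.45 ± 0.20 at ZT22 for diet. Between times it was -0.11 ± 0.20 in control mice and 0.48 ± 0.20 in bezafibrate mice. The other Ghrh probe, for M31654, was not well above background on any array, with readings of 4.48, 4.26, 3.65 and 7.46 in the same order, and gives no ratio.

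Somatostatin is made by periventricular neurons that project to the pituitary portal vessels and by interneurons of many other brain regions, striatum and cortex among them. Sst, for NM_009215, read 26271 on the control array and 27343 on the bezafibrate array at ZT10, and 26797 and 31712 at ZT22. Again the bezafibrate ZT22 array was the highest and the other 3 were close together. The diet ratio was 0.06 ± 0.20 at ZT10 and 0.24 ± 0.20 at ZT22, and the time ratio was 0.03 ± 0.20 in control and 0.21 ± 0.20 in bezafibrate mice.

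The 10 printed spots of the Sst probe show how repeatable one array is. On the control ZT10 array they ran from 25446 to 27228 with a median of 26089, on bezafibrate ZT10 from 25714 to 28571 with a median of 27286, and on control ZT22 from 25644 to 28119 with a median of 26782. On the bezafibrate ZT22 array they ran from 29451 to 32699 with a median of 31915, so every spot there lay above every spot of the other 3 arrays. Paired by position on the array, the 10 spots gave a diet ratio at ZT22 of 0.24 ± 0.04 (SD, n = 10 spots) with 10 of 10 higher. At ZT10 the ratio was 0.06 ± 0.02 (SD, n = 10 spots), also with 10 of 10 higher. The spots are repeat measurements of 1 pool per array and say nothing of the spread between mice. They also share the scaling of their array, so an error in it would move all 10 together. Across the 202 to 210 probes printed 10 times and measured on each array, the median SD of the spots was 0.07 to 0.08 on the log2 scale.

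**Figure D2:**
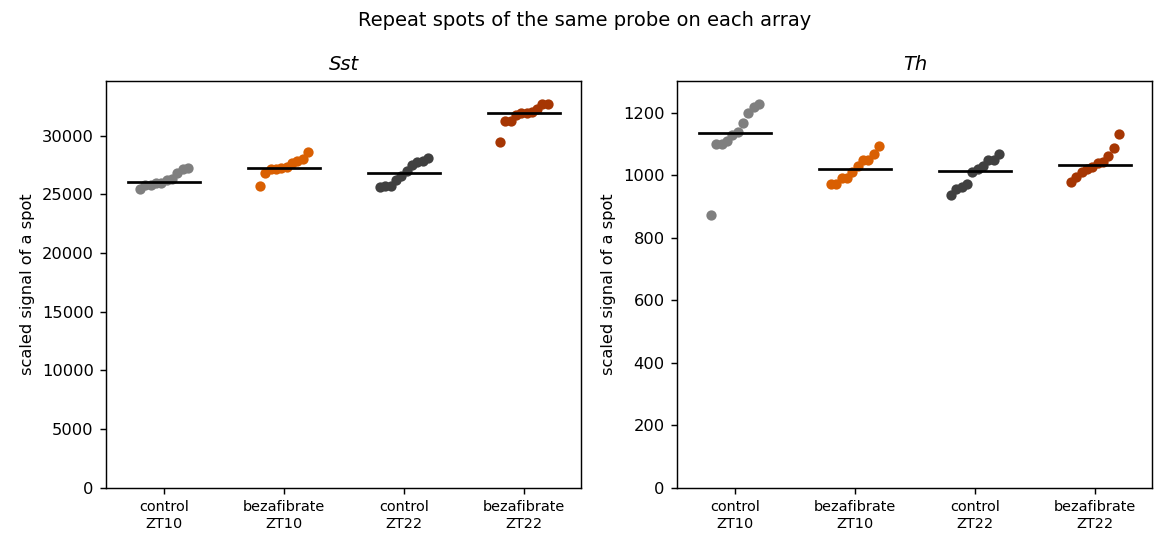
Scaled signal of each of the 10 printed spots of the Sst and Th probes on each array, from an axis starting at 0, with a black line at the median. The Sst spots on the bezafibrate ZT22 array, 29451 to 32699, lie above all Sst spots of the other arrays, while the Th spots overlap on all 4 arrays.

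Striatal markers were also higher on that array. Of 13 striatum markers, 12 were higher on the bezafibrate array than on the control array at ZT22, with a median log2 ratio of 0.50, and 6 passed 1.5-fold upward, where 1.99% of all genes did. Their summed scaled signal was 77562, 76866, 71257 and 97590 on the control ZT10, bezafibrate ZT10, control ZT22 and bezafibrate ZT22 arrays. Most of each striatum sum was Penk (58317, 57810, 54554 and 74020), which is also in the list of other neuroendocrine peptides, so the sum mainly follows 1 gene. Ppp1r1b, which encodes DARPP-32, a phosphoprotein of striatal projection neurons, was 265 on the control and 517 on the bezafibrate array at ZT22. None of the 13 markers was dim on all arrays. The part of this difference in the readings of Sst and of other genes that striatum expresses was not tested.

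Thyrotropin-releasing hormone, encoded by Trh in paraventricular neurons, drives thyrotropin and so the thyroid. Trh, for NM_009426, read 3010 on the control and 2686 on the bezafibrate array at ZT10, and 3248 and 2800 at ZT22. Both bezafibrate arrays were below both control arrays. The diet ratio was -0.16 ± 0.20 at ZT10 and -0.21 ± 0.20 at ZT22, of which the second alone passed its scanner error. Time ratios were smaller, at 0.11 ± 0.20 in control and 0.06 ± 0.20 in bezafibrate mice. The reticular thalamus also makes Trh. The thalamic markers compared here were not picked for that part of the thalamus, so they do not measure it. They were lower on the bezafibrate arrays in 10 of 10 cases at ZT10 (median log2 ratio -0.28) and in 9 of 10 at ZT22 (median -0.23). Their summed scaled signal was 24304, 20529, 22296 and 20209 on the control ZT10, bezafibrate ZT10, control ZT22 and bezafibrate ZT22 arrays, and none of them was dim on all arrays. Their part in the Trh values was not tested.

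Gonadotropin-releasing hormone, encoded by Gnrh1 in scattered preoptic neurons, is the last hypothalamic step of the reproductive axis. Gnrh1, for NM_008145, read 1327 on the control and 1533 on the bezafibrate array at ZT10, and 1515 and 1501 at ZT22. The control ZT10 array was the lowest and the other 3 lay within 1.02-fold. The diet ratio was 0.21 ± 0.20 at ZT10 and -0.01 ± 0.20 at ZT22. The time ratio was 0.19 ± 0.20 in control and -0.03 ± 0.20 in bezafibrate mice.

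Kisspeptin, encoded by Kiss1 in arcuate and anteroventral periventricular neurons, excites the Gnrh1 neurons and responds to sex steroids. Kiss1, for NM_178260, read 285 on the control and 212 on the bezafibrate array at ZT10, and 366 and 251 at ZT22. Both bezafibrate arrays were below both control arrays, and within each diet the ZT22 array was the higher one. The diet ratio was -0.43 ± 0.20 at ZT10 and -0.55 ± 0.20 at ZT22. In time the ratio was 0.36 ± 0.20 in control and 0.24 ± 0.21 in bezafibrate mice. All 4 ratios of Kiss1 passed their scanner error, and it was the only one of the 9 genes whose 4 readings spanned more than 1.5-fold, at 1.72-fold.

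Among the 15918 genes above background on all 4 arrays, 57 genes (0.358%) had diet ratios at or below those of Kiss1 at both times. That count includes Kiss1 itself and was made after its values were seen. A lower signal past the scanner error at both times was found in 320 of the 15918 genes, or 2.01%. The genes whose 4-array profile lay nearest to that of Kiss1, by the root mean square distance of centred log2 signals, were Gas2l3 (0.0176), Ms4a7 (0.0204) and 2610021A01Rik (0.0292). All 3 had low scaled signals, between 33.0 and 69.9. With 61 of 15917 genes within a distance of 0.1, a profile over 4 arrays is shared by many genes, and this is a description only.

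**Figure D3:**
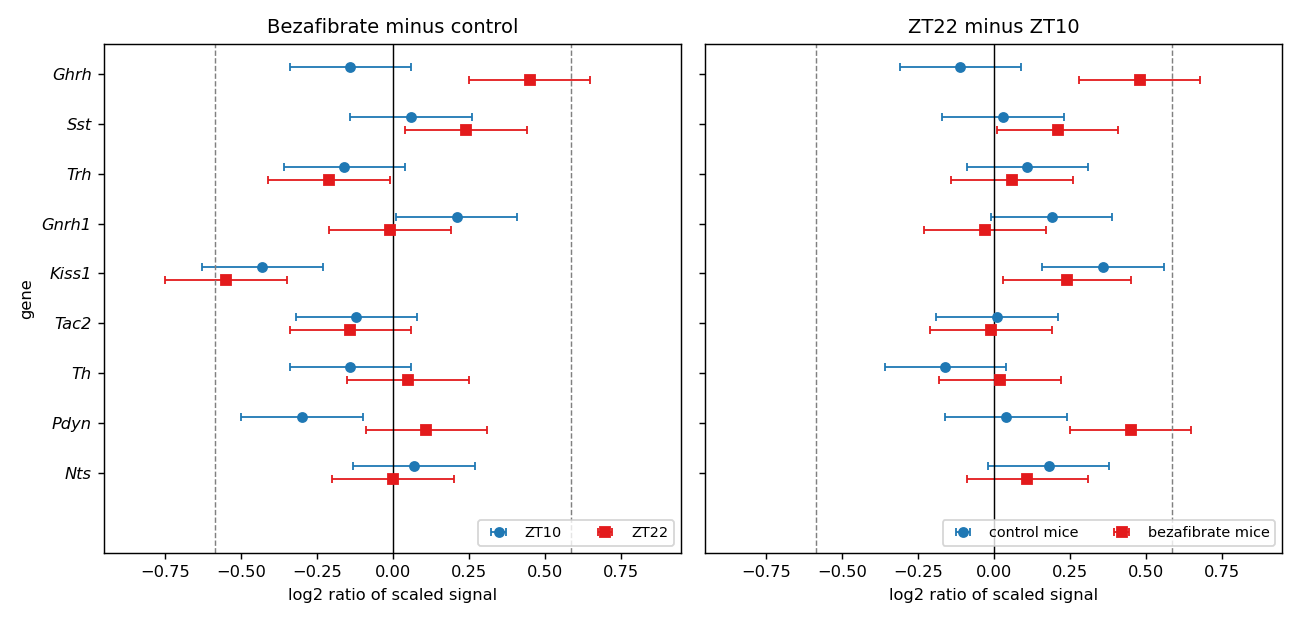
Log2 ratio of scaled signal for each measured gene, bezafibrate minus control on the left and ZT22 minus ZT10 on the right, with whiskers for the scanner error and dashed lines at 1.5-fold. No point lies past a dashed line, and Kiss1 lies left of 0 for diet at both times, at -0.43 and -0.55.

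Neurokinin B and dynorphin are the partners of kisspeptin in the arcuate neurons. Neurokinin B, encoded by Tac2, starts the pulse. Tac2, for NM_009312, read 2356 on the control and 2162 on the bezafibrate array at ZT10, and 2376 and 2150 at ZT22. The bezafibrate arrays were the lower ones at both times, by -0.12 ± 0.20 and -0.14 ± 0.20, neither past its scanner error. Times differed by 0.01 ± 0.20 in control and -0.01 ± 0.20 in bezafibrate mice. Dynorphin, encoded by Pdyn, ends the pulse, and vasopressin neurons and striatal neurons make it as well.

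Pdyn, for NM_018863, read 20099 on the control and 16286 on the bezafibrate array at ZT10, and 20594 and 22172 at ZT22. The bezafibrate ZT10 array was the lowest and stood apart from the other 3. The diet ratio was -0.30 ± 0.20 at ZT10 and 0.11 ± 0.20 at ZT22, and the time ratio was 0.04 ± 0.20 in control and 0.45 ± 0.20 in bezafibrate mice. Of the 13 striatum markers 10 were lower on the bezafibrate array at ZT10 too, with a median log2 ratio of -0.05 and 0 of 13 past 1.5-fold, and their part in the Pdyn value was not tested. Avp, the vasopressin gene of the neurons that also make dynorphin, was 60099 on the control and 37714 on the bezafibrate array at ZT10, a ratio of -0.67 ± 0.20. At ZT22 it was 69703 and 55655, a ratio of -0.32 ± 0.20. Of the 3 genes of the kisspeptin neurons, Kiss1 and Tac2 read lower on the bezafibrate array at both times, and Pdyn read lower at ZT10 and higher at ZT22, a difference that was not tested.

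Tyrosine hydroxylase, encoded by Th, is the rate-limiting enzyme of dopamine synthesis, and arcuate Th neurons hold back prolactin. Th, for NM_009377, read 1121 on the control and 1021 on the bezafibrate array at ZT10, and 1005 and 1038 at ZT22, a span of 1.12-fold. The control ZT10 array was the highest. The diet ratio was -0.14 ± 0.20 at ZT10 and 0.05 ± 0.20 at ZT22, and the time ratio was -0.16 ± 0.20 in control and 0.02 ± 0.20 in bezafibrate mice, none past its scanner error.

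The 10 Th spots were less even than those of Sst on the control ZT10 array, where they ran from 873 to 1228 with a median of 1134 and an SD of 0.14 on the log2 scale. They ran from 971 to 1095 on bezafibrate ZT10, from 936 to 1069 on control ZT22 and from 979 to 1131 on bezafibrate ZT22, so all 4 arrays overlapped. The diet ratio over paired spots was -0.14 ± 0.12 (SD, n = 10 spots) at ZT10, with 9 of 10 lower, and 0.05 ± 0.04 (SD, n = 10 spots) at ZT22, with 8 of 10 higher. Midbrain dopamine neurons also express Th. Of their 10 markers, En1 was dim on all arrays, and 2 of the 9 compared at ZT10, Slc6a3 and Foxa1, were past 1.5-fold higher with bezafibrate, beside 1.42% of all genes. Of the 8 above background on both ZT10 arrays, 4 were higher and 4 lower, with a median log2 ratio of 0.01. At ZT22 0 of 9 passed 1.5-fold, beside 5.48% of all genes, and of the 6 above background on both arrays 3 were higher and 3 lower (median 0.00). The summed scaled signal was 8849, 8990, 8669 and 9854 in the order control ZT10, bezafibrate ZT10, control ZT22 and bezafibrate ZT22, and the part of these markers in the Th values was not tested.

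Neurotensin, encoded by Nts, is a peptide of preoptic, arcuate and lateral hypothalamic neurons that acts on dopamine neurons and on feeding. Nts, for NM_024435, read 9792 on the control and 10286 on the bezafibrate array at ZT10, and 11089 and 11109 at ZT22. Both ZT22 arrays were above both ZT10 arrays, while the diets lay close together at each time. Its diet ratios were 0.07 ± 0.20 and 0.00 ± 0.20, and its time ratios were 0.18 ± 0.20 in control and 0.11 ± 0.20 in bezafibrate mice.

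Taking the 9 genes side by side, Kiss1, Trh and Tac2 were lower on the bezafibrate array at both times, and Sst was higher at both. Ghrh, Th and Pdyn were lower at ZT10 and higher at ZT22, Gnrh1 was higher at ZT10 and within 0.01 of no difference at ZT22, and Nts was higher at ZT10 and level at ZT22. Some of these signs rest on ratios within the scanner error and depend on the processing. In the ratio table that the authors deposited, Sst was -0.03 and Nts -0.01 at ZT10, and Th was -0.02 at ZT22. The median diet ratio of the 9 was -0.14 at ZT10 and 0.00 at ZT22, beside 0.01 over all genes at each time. Ratios past their scanner error were those of Gnrh1, Kiss1 and Pdyn at ZT10, where 14.6% of 16118 genes passed, and those of Ghrh, Sst, Trh and Kiss1 at ZT22, where 16.8% of 16215 genes passed. In time, 7 of 9 were higher at ZT22 in control mice (median 0.04) and 7 of 9 in bezafibrate mice (median 0.11), beside medians over all genes of 0.03 and 0.04. Past the scanner error were Kiss1 in control mice, beside 23.8% of 16405 genes, and Ghrh, Sst, Kiss1 and Pdyn in bezafibrate mice, beside 23.6% of 16013 genes. The comparisons share arrays with each other, so their ratios are not independent.

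**Figure D4:**
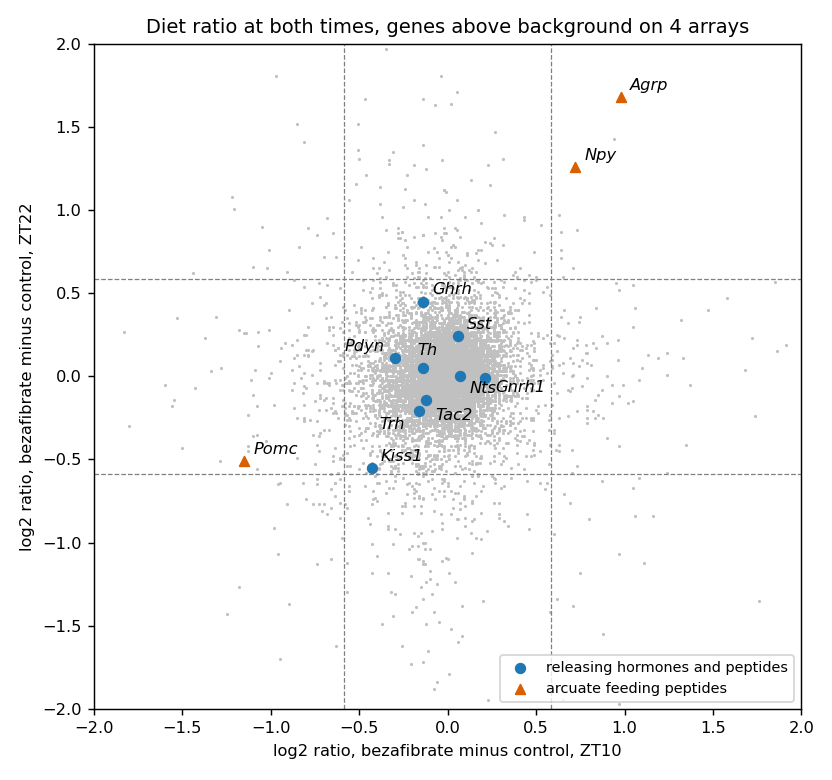
Log2 diet ratio at ZT10 (horizontal) against ZT22 (vertical), with 1 grey point per gene above background on all 4 arrays, the 9 measured genes in blue, 3 feeding peptides in orange and dashed lines at 1.5-fold. The blue points all lie inside the dashed square, with Kiss1 nearest to its lower edge, and 41 of the 15918 genes fall outside the axes, which end at a log2 ratio of 2.

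Only a model over all 4 arrays left any error to test against. An additive fit of diet and time with limma, which treats the unlike diet effect at the 2 times as error, had 1 residual degree of freedom and was run over 17543 genes. No gene passed an adjusted p of 0.05 for diet or for time in limma, and at an unadjusted p under 0.05 there were 953 genes (5.43%) for diet and 1895 genes (10.8%) for time. Among the 9 genes, Kiss1 alone had an unadjusted p under 0.05. Its diet effect was -0.49 ± 0.06 (SE) with an unadjusted limma p of 0.0109 and an adjusted p of 0.870. Its time effect was 0.30 ± 0.06 (SE) with an unadjusted p of 0.0310 and an adjusted p of 0.439. Next for diet were Trh, at -0.19 ± 0.05 (SE) and an unadjusted limma p of 0.0527, and Tac2, at -0.13 ± 0.05 (SE) and 0.0945. The adjusted limma p-values of the 9 genes ranged from 0.870 to 0.939 for diet and from 0.439 to 0.985 for time.

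Receptors of these messengers were examined next. Of 17 receptor genes 16 had a probe, 15 could be compared, and 0 of 15 passed 1.5-fold in any of the 4 comparisons. With 3.78% to 6.42% of all genes past it in these comparisons, 0 of 15 does not set the receptors apart. Gnrhr, the pituitary receptor of gonadotropin-releasing hormone, was not well above background on any array. Median log2 ratios of the 15 were -0.02 and -0.01 for diet at ZT10 and ZT22. Kiss1r, through which kisspeptin acts, was -0.21 ± 0.21 and -0.04 ± 0.21, and Tacr3, the neurokinin B receptor, was 0.08 ± 0.20 at both times.

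Neuropeptides are cut from precursors by prohormone convertases and amidated by the enzyme that Pam encodes. Of 16 genes of processing and degradation, 0 passed 1.5-fold for diet at either time, beside 3.78% and 5.48% of all genes, with medians of -0.04 and 0.02. For time, Pam was lower at ZT22 in control mice (-0.90 ± 0.20, from 1327 to 711), while its other probe for NM_013626 read 0.18 and a probe for AK053025 read -0.33, so the probes disagreed. The convertases Pcsk1 and Pcsk2 were between -0.18 and 0.04 for diet.

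Genes of dopamine synthesis and handling, Th included, gave 1 of 13 past 1.5-fold for diet at each time, near the all-gene shares of 3.78% at ZT10 and 5.48% at ZT22. At ZT10 it was Slc6a3, the dopamine transporter, which was 612 on the control and 1000 on the bezafibrate array (0.71 ± 0.20) and is also one of the midbrain dopamine neuron markers. At ZT22 it was Drd1, a dopamine receptor and also one of the striatum markers, which was 267 on the control and 495 on the bezafibrate array (0.89 ± 0.20). The medians of the 13 genes were -0.04 and 0.08.

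Receptors through which hormones feed back on these neurons gave 0 of 14 past 1.5-fold for diet at ZT10 and 1 of 13 at ZT22, again near 3.78% and 5.48% of all genes. That one was Ghsr, the ghrelin receptor, which Ghrh and Npy neurons carry. It read 37.1 and 35.6 at ZT10 and 187 and 78.6 at ZT22 on the control and bezafibrate arrays, a diet ratio of -1.25 ± 0.21 at ZT22. The time ratio was 2.33 ± 0.22 in control and 1.14 ± 0.24 in bezafibrate mice. A second Ghsr probe, above background on all 4 arrays, gave 0.35 for diet at ZT22 and -0.62 for time in control mice, so the probes disagreed in direction. Esr1, the estrogen receptor through which Kiss1 neurons sense estradiol, was 0.15 ± 0.20 and -0.18 ± 0.20 for diet.

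Of 14 transcription factors of neuroendocrine neurons, 2 of 13 passed 1.5-fold at ZT10, where 3.78% of all genes did. Pou3f2 was higher on the bezafibrate array (0.74 ± 0.21, from 153 to 256), and Six6, which Gnrh1 neurons need, was lower (-0.63 ± 0.23, from 91.1 to 58.7). At ZT22, beside 5.48% of all genes, it was 1 of 14, Otp, which was well above background only on the bezafibrate array and was at least 2.55-fold higher there. Gsx1, which Ghrh neurons need, was -0.01 ± 0.20 and -0.10 ± 0.20 for diet.

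Other hypothalamic peptides gave larger diet ratios than any of the 9 genes. Of 20 compared at ZT10, 2 were higher and 2 lower past 1.5-fold, beside 1.42% and 2.36% of all genes. Agrp and Npy, the hunger peptides of the arcuate nucleus, were higher by 0.98 ± 0.20 and 0.72 ± 0.20, and Pomc, the precursor of the satiety peptide of neighbouring neurons, was lower (-1.15 ± 0.20), as was Avp. At ZT22 the 2 of 20 past 1.5-fold were Agrp (1.68 ± 0.20, from 472 to 1512) and Npy (1.26 ± 0.20, from 1238 to 2956), and Pomc was -0.51 ± 0.20. The medians of the compared peptides above background were -0.09 and 0.00. Whether the 9 genes differ from these peptides as groups was not tested.

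**Figure D5:**
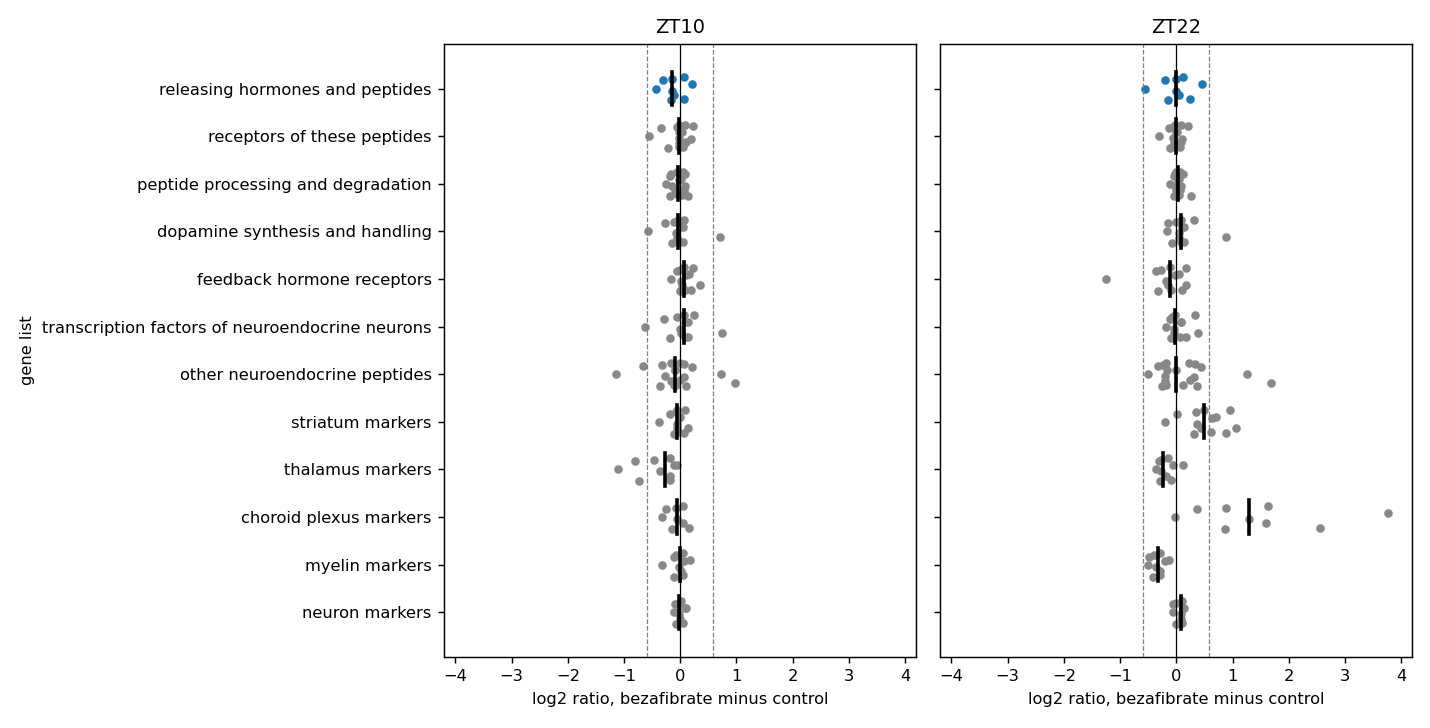
Log2 diet ratio of every gene of 12 lists above background on both arrays, at ZT10 on the left and ZT22 on the right, with 1 point per gene, a black bar at the list's median and dashed lines at 1.5-fold. The 9 genes in blue have medians of -0.14 and 0.00, and the choroid plexus and striatum markers lie to the right at ZT22, with medians of 1.30 and 0.50.

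Markers of some neighbouring tissues differed between the arrays. Of 9 choroid plexus markers, 7 were past 1.5-fold higher with bezafibrate at ZT22, beside 1.99% of all genes, Ttr the most, from 109 to 1478. Folr1 was among the 7 by a probe at 1.30, while its second probe, above background on all 4 arrays, read -0.25. The summed signal of the 9 was 6223, 5949, 7297 and 9628 on the control ZT10, bezafibrate ZT10, control ZT22 and bezafibrate ZT22 arrays. Most of each sum was Clic6 (5545, 5324, 6495 and 6428), whose diet ratio at ZT22 was -0.02. Myelin markers were lower in 10 of 10 cases at ZT22 (median -0.33), with sums of 249749, 248939, 261641 and 226986 in that order. Of 13 anterior pituitary markers 12 were compared at ZT10, and 4 were past 1.5-fold lower, beside 2.36% of all genes, Prl from 376 to 16.9 and Gh from 199 to 15.1. At ZT22, 7 of the 9 above background on both arrays were higher with bezafibrate (median 0.16). Of 11 compared, 1 was past 1.5-fold higher and 2 lower, beside 1.99% and 3.49% of all genes. The higher one was Tshb (from 216 to 551), although its second probe read -0.09. Prl and Gh, dim on the bezafibrate array, were at least 5.47-fold and 5.90-fold lower. The pituitary regulator Pou1f1 was dim on all arrays, and the sums were 6267, 4082, 5202 and 6774. The 10 cortex and hippocampus markers summed to 33932, 32493, 35842 and 44000. With bezafibrate, 2 were higher and 7 lower at ZT10 (median -0.07), and 5 were higher and 5 lower at ZT22 (median 0.04). The 8 habenula markers, with Chrnb4 dim on all arrays, summed to 10653, 11347, 9766 and 12312. Most of each habenula sum was Tac1 (8812, 9267, 7901 and 10213), which is also a striatum marker. Of the 7 habenula markers compared, 6 were higher and 1 lower at each time (medians 0.06 and 0.19). The 10 general neuron markers had medians of -0.01 and 0.08, with 0 past 1.5-fold at either time, beside 3.78% and 5.48% of all genes. The part of the block's make-up in the ratios of the 9 genes was not tested.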

How the data were processed

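In each of the 2 deposited samples, the files of the treated pool and of its control were told apart by file name and label. Per the file headers, the authors extracted the arrays with the scanner software Feature Extraction 9.5.1.1. Its processed signal, as deposited, is a background-subtracted intensity, not normalized between arrays, with its error, spot and background median intensities, and other 0 or 1 marks (well above background, saturated, outlier). The deposited value table holds, per the labels, a ratio of bezafibrate over control, used as an alternative only. Against the array files it was linear, correlated with the signal ratio at 0.988 and 0.990, and was offset by -0.14 and 0.10 on the log2 scale. How its values were scaled is not given in the sources used here.

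The signal was taken to log2 minus each array's 75th percentile of 43379 features that were not controls. Control spots were dropped, as were 73 to 142 outlier spots on an array, and repeat spots were averaged. The probe with the highest mean stood for a gene. Of 41174 probes, 22951 were named by accession, 5850 by symbol and 3944 by an older symbol through RefSeq (GRCm38.p6), 2225 kept the file's name and 6204 had none. A gene entered a comparison when well above background on at least 1 array, and a dim signal was set to its limit. A difference of at least 1.5-fold counted as past the threshold. The fit used limma 3.58.1 in R 4.3.3, with Benjamini-Hochberg adjustment over 17543 genes and a prior of 1.29 degrees of freedom. It was also run on simulated data with equal noise for every gene and equal diet effects at both times. That setting is unlike these data, so the run does not show how the fit performs here. Other steps used Python 3.11.15. The number of arrays limits the precision.

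The members and the 15 other lists were chosen with earlier results of these data known. All members were named with every probe, along with up to 4 genes past 1.5-fold per list, up to 3 defining markers per marker list, and the 3 genes nearest in profile to a member spanning 1.5-fold. Hcrt, Pmch, Oxt, Nkx2-1, Kiss1r, Tacr3, Pcsk1, Pcsk2, Esr1 and Gsx1 were named for their role after their values were seen, as were the ZT22 values of Pomc and Avp. Penk, Clic6 and Tac1 were named for their share of a marker sum, also after their values were seen. Not every list gene past 1.5-fold is reported here. Alternatives were normexp background correction with an offset of 50, quantile or median normalization, the mean over probes, the deposited table, a 2-fold threshold, a mean signal of at least 100, and other limma settings.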

Additional observations from a re-analysis of the deposited data

Results flagged for a closer look

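A few genes had diet or time ratios of opposite sign in the groups compared, at least 1 of the pair past its scanner error. With 1 array per group the difference was not tested. For diet, Ghrh was -0.14 at ZT10 and 0.45 at ZT22, Pdyn was -0.30 and 0.11, and Gnrh1 was 0.21 and -0.01. For time, Ghrh was -0.11 in control and 0.48 in bezafibrate mice. In each gene a single array stood apart from the other 3, which was bezafibrate ZT22 for Ghrh, bezafibrate ZT10 for Pdyn and control ZT10 for Gnrh1.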

How the results depend on the processing

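The ratios of the 9 genes were computed under other background correction, normalization, probe choice and, for diet, the authors' deposited table, giving 162 values. Of these, 9 changed sign, none among the 55 whose main ratio was at least 0.2 in size. The sign changes included the diet ratios of Sst and Nts at ZT10 and of Th at ZT22. Kiss1 ranged from -0.51 to -0.35 for diet at ZT10 and from -0.61 to -0.43 at ZT22. Some ratios just past the scanner error of 0.20 fell below that size in some alternatives. For diet, Gnrh1 at ZT10 ranged from 0.12 to 0.24, and at ZT22 Trh ranged from -0.29 to -0.17 and Sst from 0.17 to 0.26. For time in bezafibrate mice, Sst ranged from 0.13 to 0.21. The count of genes past 1.5-fold for diet at ZT22 became 1 in place of 0 in the authors' deposited table (Kiss1, -0.61). Averaging both Ghrh probes, one of them below background, made it 1 for diet at ZT22 (Ghrh, 0.74) and 1 for time in bezafibrate mice (Ghrh, 0.64). It stayed 0 in the other alternatives run, a 2-fold threshold and a mean signal of at least 100 included, as did the count past an adjusted p of 0.05 in limma. No paired analysis was possible because each group had 1 array and so no replicate numbers to pair by, although the additive limma fit compares the diets within each time. Leaving out an array left no residual degree of freedom. The precision is limited by 1 pooled array per group.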
